A study of Mus musculus with 96 samples.

Results

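The mouse serpin genes of the alpha-1 antitrypsin and antichymotrypsin groups are described here in liver, together with the corticosteroid-binding globulin gene. They were chosen by name: the rows for Serpina1a, Serpina1b, Serpina1c, Serpina1d, Serpina1e, Serpina3k, Serpina3m, Serpina3n and Serpina6, which are 9 of 38924 genes in the count tables. Liver RNA came from 48 male F1 mice between the inbred strains NOD/ShiLtJ, a model of autoimmune diabetes, and PWK/PhJ, which descends from wild-caught mice. Mice were of the cross NODxPWK or the reciprocal cross PWKxNOD (the strain written first is taken as the dam), were fed normal (0.009 g/kg) or high (0.050 g/kg) cholecalciferol, which is vitamin D3, and were younger or older, which gives 8 groups of 6 mice. The age labels are 8 for younger and 24 or 25 for older mice with no unit and do not match the weeks named in the protocol, so the 2 ages are called younger and older here. Label 25 stands on 7 older mice, 5 of NODxPWK and 2 of PWKxNOD, and each of them had the normal diet. Every mouse carries a NOD and a PWK copy of each of these genes' chromosome, and each count was given by the submitters' method to the NOD or the PWK allele. The labels do not say whether mice of a group shared a litter or a cage.

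Serpins are suicide inhibitors of proteases: the target enzyme cuts an exposed stretch near the C terminus, the reactive centre loop, and is then trapped by the refolding serpin. Alpha-1 antitrypsin is made by hepatocytes, is among the most abundant proteins of plasma and protects tissue from neutrophil elastase. Where people have a single alpha-1 antitrypsin gene, mice have a row of copies whose loops differ, and the same holds for antichymotrypsin and the Serpina3 genes. Serpina3k encodes contrapsin, an inhibitor of trypsin-like proteases, Serpina3n an acute phase inhibitor of granzyme B and leukocyte elastase, and Serpina6 the plasma carrier of glucocorticoids, which inhibits no protease.

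The coding stretch of the loop is shown because the loop meets the protease and because a read of this length over it tells the copies apart. Each line is 68 bases of coding sequence, the read length of the study, from the GENCODE M21 transcript of the reference strain (GRCm38), 5′ to 3′. Capitals mark positions at which the copies of a group differ, 15 of 68 for the Serpina1 copies and 32 of 68 for the Serpina3 genes.
Serpina1a: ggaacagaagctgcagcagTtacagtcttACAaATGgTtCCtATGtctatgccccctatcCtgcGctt
Serpina1b: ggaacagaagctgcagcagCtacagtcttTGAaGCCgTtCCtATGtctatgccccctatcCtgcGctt
Serpina1c: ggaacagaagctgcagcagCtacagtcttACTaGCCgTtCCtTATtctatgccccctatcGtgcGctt
Serpina1d: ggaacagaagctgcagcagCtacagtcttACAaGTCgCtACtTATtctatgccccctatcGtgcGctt
Serpina1e: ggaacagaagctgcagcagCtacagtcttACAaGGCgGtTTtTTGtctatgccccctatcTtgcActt
Serpina3k: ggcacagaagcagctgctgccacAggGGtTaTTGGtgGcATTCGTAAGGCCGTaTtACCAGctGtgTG
Serpina3m: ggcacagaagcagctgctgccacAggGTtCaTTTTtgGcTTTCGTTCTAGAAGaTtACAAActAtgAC
Serpina3n: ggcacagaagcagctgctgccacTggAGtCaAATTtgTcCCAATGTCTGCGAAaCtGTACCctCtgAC
Over the whole coding sequence, with gaps counted as differences, the Serpina1 copies were 91.5 to 96.7% identical to each other. The low end comes from the pairs of Serpina1a (91.5 to 93.3%), whose annotated coding sequence has 1311 bases against 1242 for the others. This difference in length lowers its values. The other pairs were 96.3 to 96.7% identical. In the loop stretch Serpina1c and Serpina1d, the closest pair, differed at 4 bases and Serpina1a and Serpina1e, the farthest pair, at 10. Serpina3k and Serpina3m were 90.8% identical in coding sequence and differed at 18 bases of the loop stretch, and Serpina3k and Serpina3n were 82.6% identical and differed at 29. None of these 8 stretches occurs in another annotated gene of the reference strain.

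The promoters of the 5 Serpina1 copies are shown because the counts of several copies correlated from mouse to mouse while their alleles differed. Each line is 80 bases of the minus strand of chromosome 12 from the RefSeq promoter table (GRCm38.p6), with capitals at the 5 positions that differ between copies: Serpina1a at chr12:103863601-103863680, Serpina1b at chr12:103738176-103738255, Serpina1c at chr12:103904938-103905017, Serpina1d at chr12:103773610-103773689 and Serpina1e at chr12:103956936-103957015.
Serpina1a: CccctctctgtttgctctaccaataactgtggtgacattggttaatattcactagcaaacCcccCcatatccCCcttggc
Serpina1b: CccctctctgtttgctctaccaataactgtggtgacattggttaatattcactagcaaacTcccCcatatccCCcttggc
Serpina1c: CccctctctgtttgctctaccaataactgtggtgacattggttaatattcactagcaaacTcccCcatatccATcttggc
Serpina1d: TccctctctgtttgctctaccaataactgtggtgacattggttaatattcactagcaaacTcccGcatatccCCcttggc
Serpina1e: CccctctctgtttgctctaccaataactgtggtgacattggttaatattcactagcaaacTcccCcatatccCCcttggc
Serpina1b and Serpina1e were identical over these bases, and the other pairs differed at 1 to 4. The letters GTTAAT, which begin the recognition sequence of the hepatocyte factor HNF1, and TGTTTGC, part of the recognition sequence of forkhead factors such as FOXA2, were each found on either strand in all 5 copies. Among 32851 promoter windows of the same table (250 bases before to 50 after the start), 7.1% held GTTAAT and 5.07% held TGTTTGC. The table held 6 of the 9 genes, the sixth being Serpina3n, whose window held neither. The letters TTCNNNGAA, which STAT factors recognise, were in none of the 6 windows and in 8.3% of all. The letters TTGCNNAA, a form of the C/EBP recognition sequence, were in 10.8% of all windows and in 4 of the 6, those of Serpina1a, Serpina1b, Serpina1d and Serpina1e but not that of Serpina1c. Such a match is a description of letters, and these are sequences of the reference strain, not of NOD or PWK.

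All 9 genes lie on chromosome 12 (GRCm38). Serpina6 (ENSMUSG00000060807) spans 103646630 to 103657212, and the Serpina1 copies follow between 103728156 and 103958975, all on the minus strand. The Serpina3 genes lie on the plus strand, Serpina3k (ENSMUSG00000058207) from 104338486 to 104346144 and Serpina3n (ENSMUSG00000021091) from 104406729 to 104414329. The annotated Serpina3m starts at the start of Serpina3k and runs over it to 104394257. The annotated Serpina1b runs from 103728156 to 103830373, over Serpina1d and over the pseudogene Gm8893. An antisense gene, B430119L08Rik, lies within Serpina1c from 103895897 to 103898784. Since the libraries carried no strand, reads from any exon bases that this pair shares cannot be told apart.

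Because the copies are so alike, the share of each gene's 68-base exon windows that also occur in another gene was counted on the reference strain. It was 75.3% for Serpina1c, 51.5% for Serpina1a, 41.1% for Serpina1d, 22.5% for Serpina1e and 21.2% for Serpina1b. It was 11.5% for Serpina3m, 8.5% for Serpina3k, 1.9% for Serpina3n and 0% for Serpina6. Values of single Serpina1 copies are therefore uncertain wherever the submitters' method had to divide shared reads, and the sum over the copies is given beside them. The same holds for Serpina3m, which shares windows with the far more abundant Serpina3k. The pseudogene Gm8893 was the gene outside the group that shared most windows with the Serpina1 copies, 10.4 to 26.7% of their windows.

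Summed expected counts (estimated counts that need not be whole) per mouse, in units of 1e6 counts, were 2.03 to 7.48 with a median of 5.27, and 2.03 to 3.09 in the 6 mice of a single barcode. All 12 hepatocyte markers were present, at a sum of 86568 to 154010 CPM (counts per 1e6 counts of the library, here always after TMM scaling). All 7 neutrophil markers averaged under 0.5 CPM. Exocrine pancreas markers summed to more than 10 CPM in 11 mice, up to 1735 CPM. A clock gene score, which sets the mean log2 level of 6 genes (Ciart, Dbp, Nr1d2, Per2, Per3, Tef) against that of 4 genes of opposite phase (Arntl, Clock, Nfil3, Npas2), had a median of 0.83 in NODxPWK and 2.80 in PWKxNOD mice. As males carry only the dam's X chromosome, X-linked counts given to the sire's strain are misplaced, and these were 4.29 to 6.59% of X-linked counts. In bulk tissue, fewer cells of a type and less RNA per cell cannot be told apart.

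The 9 genes together took 3.35 to 4.56% of all counts of a mouse. The lowest count of any of them in any mouse was 135, for Serpina3m. Levels between genes were compared per kb of exon. Serpina3k was highest, with 4062 to 7305 CPM per kb over the 48 mice and a median of 5606. Serpina1c followed at a median of 5305 and Serpina1a at 3903. Serpina3k stood above Serpina1c in 33 of 48 mice, so the order of the first 2 did not hold in every mouse, while Serpina1c stood above Serpina1a in 47 of 48. Serpina1b had a median of 3058 CPM per kb, Serpina1d of 2406 and Serpina1e of 1853. Serpina1a stood above Serpina1b in 48 of 48 mice, Serpina1b above Serpina1d in 48 and Serpina1d above Serpina1e in 44. The order of Serpina1c, Serpina1a and Serpina1b rests on their annotated exon lengths of 1361, 1832 and 2415 bases. Before division by length their mean levels were 7133, 7184 and 7399 CPM, with Serpina1b highest. Serpina3n, at a median of 308 CPM per kb, Serpina6, at 169, and Serpina3m, at 52.7, came last in that order in all 48 mice.

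**Figure D1:**
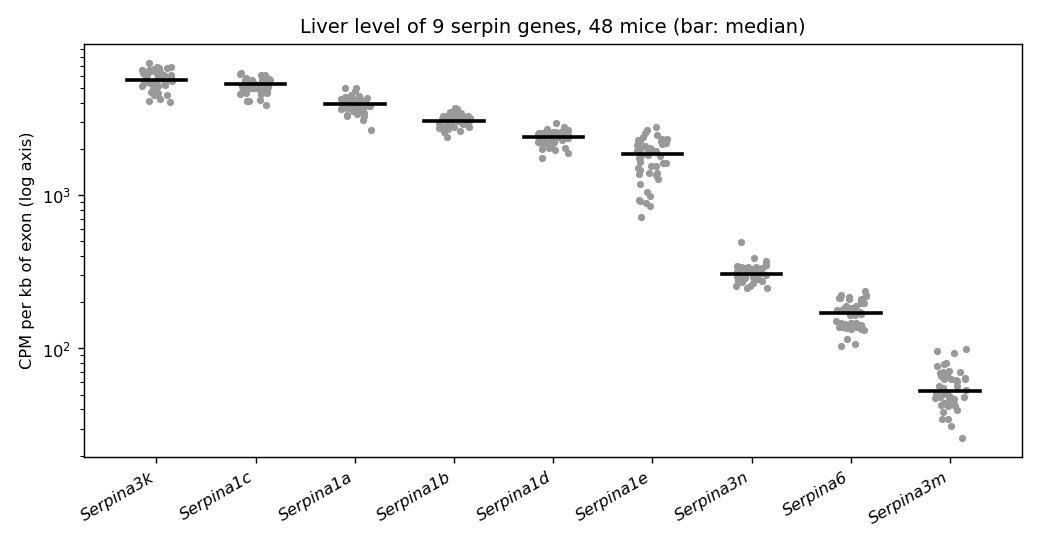
Level of the 9 genes in CPM per kb of exon (log axis), with a point for each of 48 mice and a bar at the median. Serpina3k and Serpina1c overlap at the top, and Serpina3n, Serpina6 and Serpina3m lie well below the Serpina1 copies.

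Within the Serpina1 sum, Serpina1b made up 26.6 ± 1.07% (SD, n = 48), Serpina1a 25.8 ± 2.35% and Serpina1c 25.6 ± 1.27% of the counts of both alleles. Serpina1d made up 11.9 ± 0.81% and Serpina1e 10.2 ± 2.38%, and the latter ranged from 4.87 to 14.6%. Serpina3k made up 91.3 to 95.9% of the Serpina3 sum.

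All 9 genes passed the test for a difference between the PWK and the NOD allele, 6 higher and 3 lower from PWK, where 43.6% of the 9362 autosomal genes tested passed (20.9% higher and 22.8% lower). In 48 of 48 mice the counts of Serpina1c were given almost only to the NOD allele and those of Serpina1e almost only to the PWK allele. The NOD allele of Serpina1c had 5237 to 8560 CPM (median 7216) and its PWK allele 0.844 to 11.1 CPM (median 4.95). The NOD allele of Serpina1e had 10.7 to 51.4 CPM (median 26.4) and its PWK allele 1138 to 4455 CPM (median 2972). Neither pair of ranges overlapped. The PWK share was 0.013 to 0.211% for Serpina1c and 97.7 to 99.5% for Serpina1e, so that the minor share lay below the share of misplaced X-linked counts in every mouse for both genes. On the log2 scale the PWK allele differed from the NOD allele by -10.41 ± 0.09 for Serpina1c (edgeR adjusted p = 3.45e-49) and by 6.68 ± 0.08 for Serpina1e (edgeR adjusted p = 9.28e-45), where ± is the standard error. Over all autosomal genes with a mean of at least 20 counts, 0.87% had a PWK share under 1% or over 99%. The number of gene copies in either strain was not measured here.

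The counts of the other copies were given to both alleles. Serpina1a had 1451 to 2489 CPM from NOD and 3156 to 7148 CPM from PWK, again with no overlap, and a PWK over NOD ratio of 2.73 (log2 1.45 ± 0.03, edgeR adjusted p = 1.41e-37). Serpina1d had 398 to 1559 CPM from NOD and 1907 to 3075 CPM from PWK, at a ratio of 2.88 (log2 1.52 ± 0.04, edgeR adjusted p = 1.04e-29). Serpina1b was close to even, with a PWK share of 47.6 to 53.2% and a log2 ratio of 0.05 ± 0.01 (edgeR adjusted p = 6.3e-06). Summed over the 5 copies, the alleles came out nearly level. The Serpina1 sum was 10523 to 16566 CPM from NOD (median 13858) and 10144 to 17043 CPM from PWK (median 14484), a PWK share of 48.5 to 54.1%. Its log2 ratio was 0.07 ± 0.01, and 0.02 ± 0.01 with the counts of Gm8893 added, 5.68 to 13.7% of which were given to PWK. These sums are descriptions with no test. The make-up behind the sums differed: from the NOD allele Serpina1c was 52.5 ± 2.53% (SD, n = 48), Serpina1b 26.8 ± 0.98% and Serpina1a 14.2 ± 1.54% of the sum, and from the PWK allele Serpina1a was 36.8 ± 3.81%, Serpina1b 26.4 ± 1.58%, Serpina1e 19.7 ± 4.75% and Serpina1d 17.1 ± 2.23%.

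**Figure D2:**
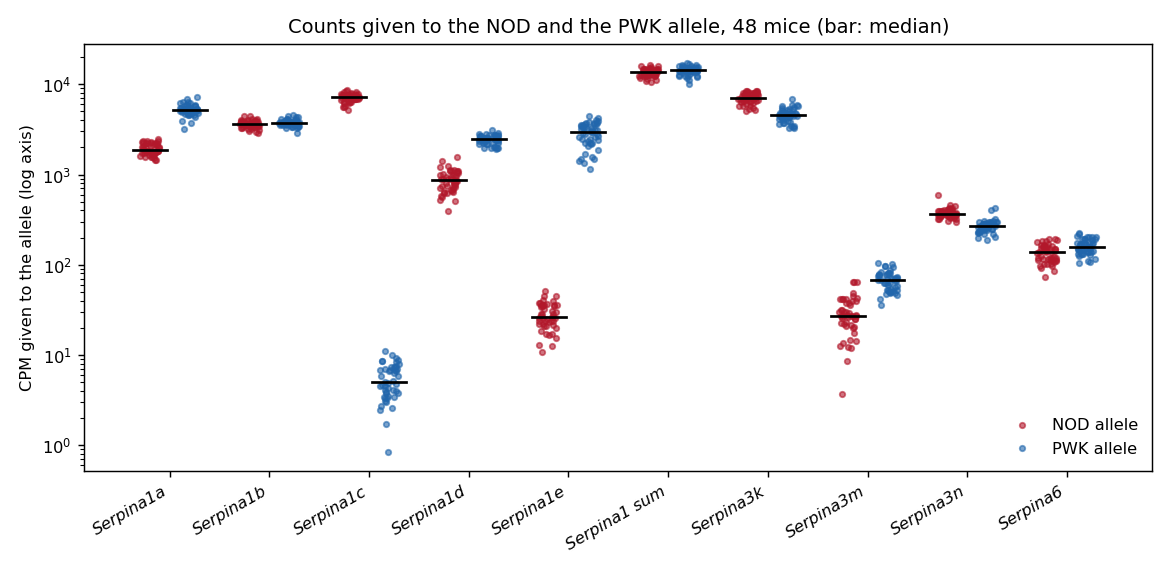
Counts given to the NOD allele (red) and the PWK allele (blue) in CPM on a log axis, with a point for each of 48 mice and a bar at the median. Serpina1c and Serpina1e are split to opposite sides, and the Serpina1 sum is level.

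Among the Serpina3 genes the 2 more abundant ones were higher from NOD. Serpina3k had 5046 to 8402 CPM from NOD and 3246 to 6804 CPM from PWK, a PWK share of 35.8 to 45.3% (log2 -0.62 ± 0.01, edgeR adjusted p = 9.85e-40). Serpina3n had a PWK share of 37.03 to 50.3% (log2 -0.48 ± 0.02, edgeR adjusted p = 1.6e-26). Serpina3m went the other way, with a PWK share of 55.5 to 94.4% (log2 1.28 ± 0.07, edgeR adjusted p = 2.12e-20) from 3.71 to 64.6 CPM of NOD and 36.1 to 104.8 CPM of PWK. Of its windows 10.6% also occur in Serpina3k, whose mean level was 11659 CPM against 97.1 CPM for Serpina3m. The part of reads shared with Serpina3k in the Serpina3m values was not tested. For Serpina6 the PWK share was 49.3 to 61.0% (log2 0.26 ± 0.02, edgeR adjusted p = 5.92e-14), a small excess of PWK with overlapping ranges. All 9 calls held under every alternative run for this comparison, none of which changed how reads were divided between copies.

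Age moved the allele ratio of 2 genes in opposite directions. They were 2 of 9, 1 in each direction, where 0.705% of genes tested passed (0.363% higher and 0.342% lower). The PWK share of Serpina1d was 71.6 to 86.0% (median 77.6%) in younger and 56.1 to 81.8% (median 69.7%) in older mice. The ranges overlapped, and 3 of 24 older mice lay above the median of the younger. The log2 ratio of PWK over NOD was lower in older mice by -0.51 ± 0.09 (edgeR adjusted p = 0.000382). For the Serpina1 sum, over copies that share reads, the same difference was 0.01 ± 0.02, a description with no test. By diet, the medians for Serpina1d were 76.7% (younger) and 75.6% (older) on normal and 77.7% and 66.4% on high vitamin D. In PWKxNOD mice on the high diet the age groups did not overlap (72.4 to 80.3% younger, 56.1 to 66.7% older). This pair of ranges was picked out among many comparisons of ranges, which were not made over all genes. The difference of the age effect between diets, a test added after these values were seen, was -0.62 ± 0.17 and did not pass (edgeR adjusted p = 0.668), as none of the 9362 genes did in that test by edgeR (percent called 0; 368 had an unadjusted p under 0.05) or by limma. Unadjusted p-values were under 0.05 for 3 of the 9 genes in it, Serpina1d, Serpina3k and Serpina3m.

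Serpina3k moved towards PWK. Its PWK share was 35.8 to 40.2% (median 38.3%) in younger and 37.2 to 45.3% (median 40.5%) in older mice, and 22 of 24 older mice lay above the median of the younger. The log2 ratio rose by 0.13 ± 0.02 (edgeR adjusted p = 5.27e-05). The highest shares were those of older PWKxNOD mice on the high diet, 40.5 to 45.3%, against 37.1 to 39.2% in their younger counterparts. Both age calls held under every alternative run for allele ratios, without the mice labelled 25 as well (-0.61 for Serpina1d and 0.15 for Serpina3k). Fits with the clock score or without the mice with pancreas transcripts were not run for allele ratios.

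**Figure D3:**
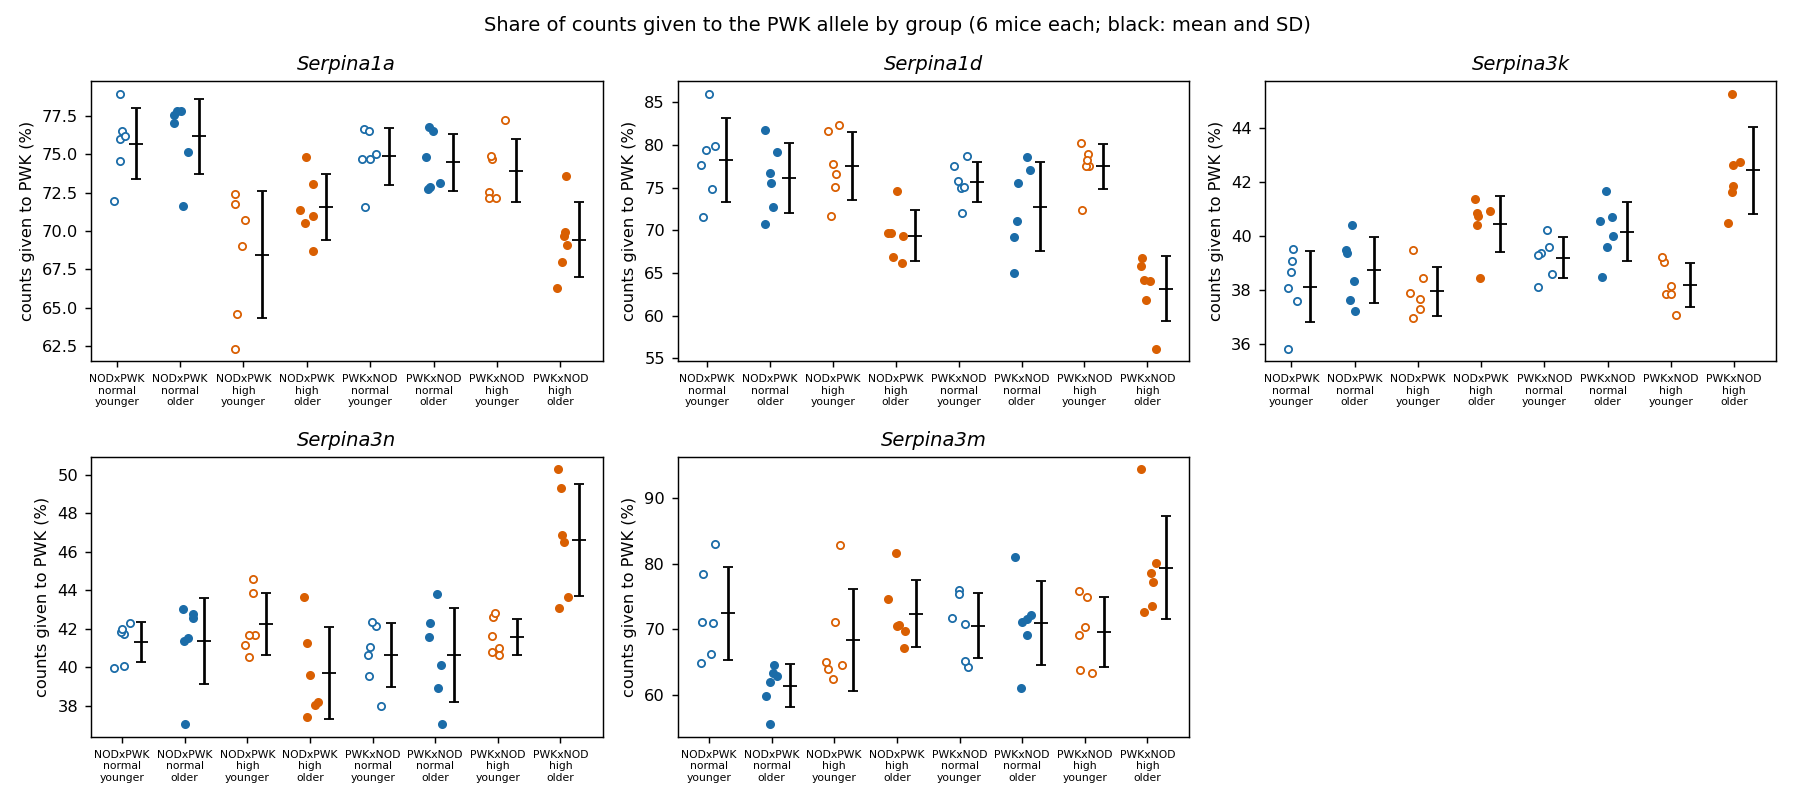
Share of counts given to the PWK allele by group, with a point per mouse (filled for older, orange for the high diet) and the mean with SD in black; the axes do not start at 0. In both crosses older mice on the high diet have the lowest median Serpina1d share and the highest median Serpina3k share.

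Diet was called for the allele ratio of Serpina1a, 1 of 9, where 0.0214% of genes tested passed. Its PWK share was 71.5 to 78.9% (median 75.6%) on the normal and 62.3 to 77.3% (median 71.2%) on the high diet. Just 1 of 24 mice on the high diet lay above the median of the normal diet. The size of the difference varied between groups. Mean shares on the normal and the high diet were 75.7 and 68.5% in younger and 76.2 and 71.6% in older NODxPWK mice. In PWKxNOD mice they were 74.9 and 73.9% in younger and 74.5 and 69.4% in older mice. The log2 ratio was lower on the high diet by -0.32 ± 0.05 (edgeR adjusted p = 0.0015). The call was lost without lane set 2 (-0.28, adjusted p = 0.0719), without lane set 6 (-0.30, adjusted p = 0.0812) and without the mice labelled 25 (-0.24, adjusted p = 0.18), whose share of 73.1 to 77.8% compares with 71.7 to 76.8% in the 5 normal older mice labelled 24. For the Serpina1 sum the same difference in log2 ratio was -0.09 ± 0.02.

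The parent from which an allele came was called for Serpina1b, 1 of 9, where 0.267% passed. Its PWK share was 48.7 to 53.2% in NODxPWK and 47.6 to 52.5% in PWKxNOD mice, and 2 of 24 PWKxNOD mice lay above the NODxPWK median. The maternal over paternal log2 ratio was -0.04 ± 0.01 (edgeR adjusted p = 0.0324), from mean shares of 51.5% in NODxPWK and 50.2% in PWKxNOD mice. The call was lost with limma on log2 ratios (adjusted p = 0.0768) and without the mice labelled 25 (adjusted p = 0.115). Leaving out any lane set but the fifth also ended it (adjusted p = 0.0532 to 0.26).

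Serpina3n and Serpina3m held further differences of share between groups that passed no test. They were picked out among many comparisons of ranges, which were not made over all genes. The PWK share of Serpina3n was 43.1 to 50.3% in older PWKxNOD mice on the high diet and 40.7 to 42.8% in their younger counterparts, with no overlap. In NODxPWK mice on that diet it was 37.4 to 43.7% in older and 40.5 to 44.6% in younger mice. The difference of the age effect between crosses was 0.22 ± 0.07 on the log2 scale (edgeR adjusted p = 0.976, in a test added after these values were seen that called 0.0107% of genes). For Serpina3m in older NODxPWK mice the PWK share was 55.5 to 64.6% on the normal and 67.2 to 81.7% on the high diet, again without overlap. The older normal diet group also lay below younger NODxPWK mice on the normal diet, which had 64.8 to 83.0%. In PWKxNOD mice these ranges were 61.0 to 81.0% and 72.6 to 94.4% and overlapped. Of the 6 older NODxPWK mice on the normal diet 5 were labelled 25. Among older mice on the normal diet of both crosses, the share was 59.8 to 69.0% (median 62.8%) with label 25 and 55.5 to 81.0% (median 71.5%) with label 24.

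In summed counts of both alleles, age was called for Serpina1a alone, 1 of 9, where 12% of the 11979 genes tested passed (6.42% higher and 5.58% lower). Serpina1a had 4887 to 7939 CPM (median 6807) in younger and 6179 to 9227 CPM (median 7652) in older mice, and 22 of 24 older mice lay above the younger median. It rose by 0.19 ± 0.04 on the log2 scale, or 1.14-fold (edgeR adjusted p = 0.000584). Of the cell markers, both tested cholangiocyte markers were higher with age, Spp1 (0.72 ± 0.08) and Sox9 (0.83 ± 0.14), as was the 1 tested lymphoid marker, Igkc (0.82 ± 0.16), and 3 of 12 hepatocyte markers were higher and 4 lower. Cholangiocyte markers summed to 23.9 to 40.04 CPM in younger and 28.2 to 122 CPM in older mice, and their part in the Serpina1a difference was not tested. Without the mice labelled 25 the rise was 0.13 ± 0.05 (adjusted p = 0.144); these 7 mice had 7376 to 9227 CPM, and the other 5 older mice on the normal diet 6179 to 8032 CPM. The other 8 genes differed by -0.12 to 0.05, with the lowest p among them for Serpina3k (-0.12 ± 0.05, edgeR adjusted p = 0.0878). The Serpina1 sum differed by 0.03 ± 0.04 and the Serpina3 sum by -0.12 ± 0.04.

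Diet averaged over both ages was called for none of the 9 genes by edgeR or by DESeq2, where edgeR called 0.342% of genes. Unadjusted p-values were under 0.05 for 2 of them, Serpina1a and Serpina3m. In older mice, Serpina1e and Serpina3k were higher on the high diet, 2 of 9, where 3.71% of genes passed (1.9% higher and 1.81% lower). Serpina1e had 1158 to 3627 CPM (median 2265) in 12 older mice on the normal diet and 1602 to 4493 CPM (median 3671) in 12 on the high diet, and 11 of the latter lay above the normal diet median. It rose by 0.68 ± 0.16, or 1.60-fold (edgeR adjusted p = 0.00887). Serpina3k had 8355 to 13071 CPM (median 10054) on the normal and 8442 to 15025 CPM (median 12035) on the high diet, and rose by 0.27 ± 0.06, or 1.21-fold (edgeR adjusted p = 0.00985). The Serpina1e call was lost without lane set 6 (adjusted p = 0.0589) and the Serpina3k call without lane set 1 (adjusted p = 0.0851) or 3 (adjusted p = 0.0942). Serpina3m leaned the other way by -0.45 ± 0.15, which edgeR did not call (adjusted p = 0.0782) and DESeq2 did (adjusted p = 0.0377), and without the mice labelled 25 its difference was 0.021 ± 0.20. In younger mice none of the 9 genes was called, nor any of the genes tested (percent called 0; 573 genes had an unadjusted p under 0.05, and DESeq2 called 10). Serpina1e then had 2369 to 4104 CPM (median 3223) on the normal and 1381 to 3457 CPM (median 2559) on the high diet, a log2 difference of -0.33 ± 0.16. The unadjusted p was under 0.05 for Serpina1a, Serpina1c and Serpina1e in younger mice, and DESeq2 called none of the 9 there.

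The difference of the diet effect between ages was called for these 2 genes, both higher, where 0.618% of genes passed (0.275% higher and 0.342% lower). It was 1.01 ± 0.22 for Serpina1e (edgeR adjusted p = 0.0248) and 0.38 ± 0.09 for Serpina3k (edgeR adjusted p = 0.0403). Leaving out any lane set but the fourth ended the Serpina1e call (adjusted p = 0.0548 to 0.189), and any but the fifth the Serpina3k call (adjusted p = 0.0577 to 0.192). Both were also lost with no filter on low counts (adjusted p = 0.0568 and 0.0694), without the mice labelled 25 (0.72 ± 0.28, adjusted p = 0.457, and 0.42 ± 0.12, adjusted p = 0.3), without the mice with pancreas transcripts (adjusted p = 0.167 and 0.225) and with the clock score (adjusted p = 0.0927 and 0.0996), and Serpina3k without the shallowest barcode (adjusted p = 0.104). Serpina1c had 0.30 ± 0.09 (edgeR adjusted p = 0.0753, DESeq2 adjusted p = 0.0239). Over the 9 genes the median was 0.18, against -0.01 over all genes tested. The Serpina1 copies share reads and vary together from mouse to mouse, so the 9 values are not separate observations. Serpina3m and Serpina6 were below 0 (-0.45 ± 0.21 and -0.30 ± 0.14, not called), and Serpina3m was at 0.017 ± 0.24 without the mice labelled 25. The Serpina1 sum had 0.28 ± 0.08, and in older mice it was 21549 to 30955 CPM on the normal and 22998 to 33609 CPM on the high diet.

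**Figure D4:**
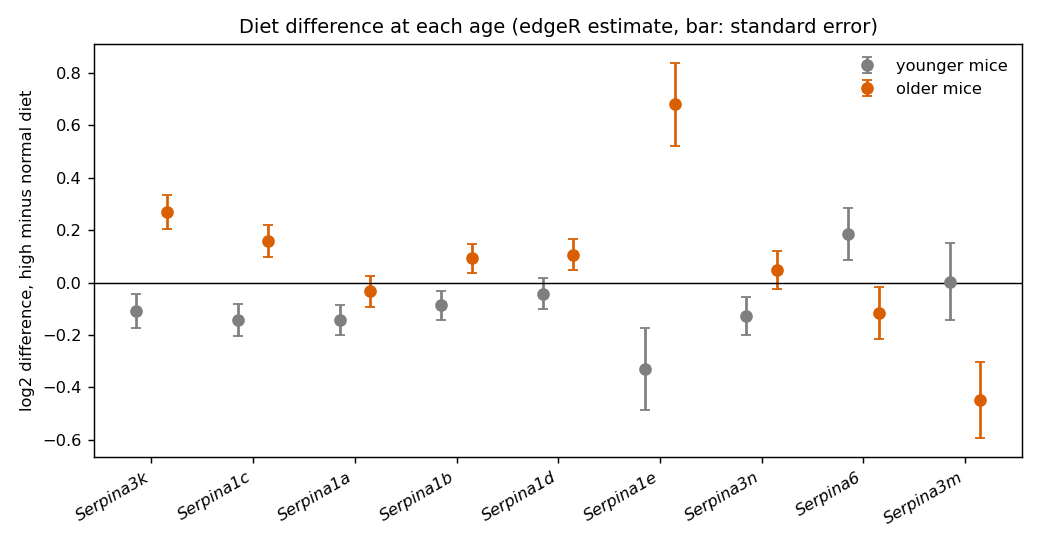
Log2 difference between high and normal vitamin D in younger (grey) and older mice (orange) for the 9 genes, as the edgeR estimate with its standard error. Serpina1e has the widest gap between the ages, from -0.33 in younger to 0.68 in older mice.

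Without the mice labelled 25 the difference in older mice was 0.39 ± 0.24 for Serpina1e (adjusted p = 0.665) and 0.31 ± 0.10 for Serpina3k (adjusted p = 0.289), which leaves 5 older mice on the normal diet. Among older mice on the normal diet Serpina1e was 1158 to 2506 CPM in the 7 labelled 25 and 1506 to 3627 CPM in the 5 labelled 24, and Serpina3k 9209 to 11128 and 8355 to 13071 CPM. Without the 11 mice with pancreas transcripts the differences were 0.60 for Serpina1e (adjusted p = 0.159) and 0.26 for Serpina3k (adjusted p = 0.134), and with the clock score as a covariate 0.61 (adjusted p = 0.123) and 0.24 (adjusted p = 0.136). Pancreas markers exceeded 10 CPM in 5 of 12 older mice on the normal and in 3 of 12 on the high diet, and median clock scores of the older groups were -1.45 (NODxPWK) and 1.71 (PWKxNOD) on the normal and 0.12 and 3.70 on the high diet. The part of these in the diet difference was not tested beyond these fits.

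**Figure D5:**
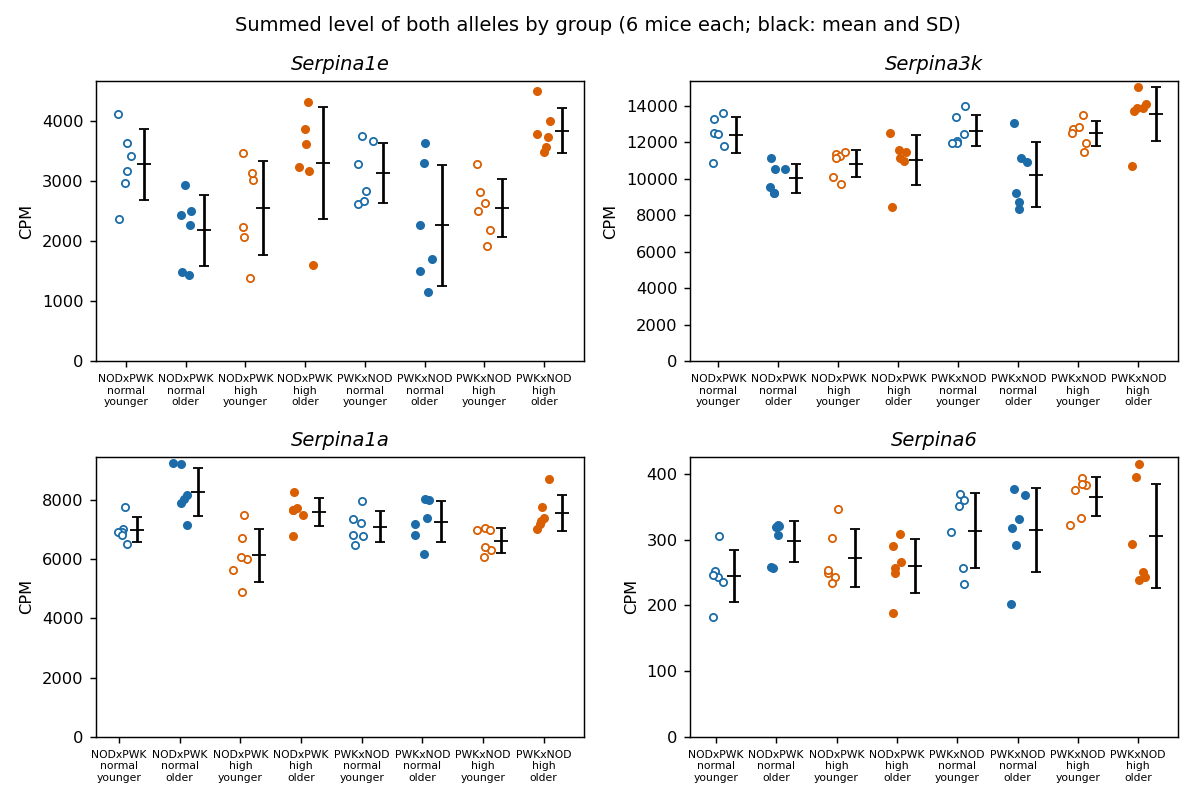
Summed level of both alleles in CPM by group for 4 genes, with a point per mouse (filled for older, orange for the high diet) and the mean with SD in black. Serpina1e ranged from 1158 to 3627 CPM in older mice on the normal diet and, on the high diet, from 1602 to 4305 CPM in older NODxPWK and from 3475 to 4493 CPM in older PWKxNOD mice.

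Between the crosses, Serpina6 and Serpina3k were higher in PWKxNOD mice, 2 of 9, where 10.7% of genes passed (5.36% higher and 5.33% lower). Serpina6, the carrier of glucocorticoids, had 182 to 347 CPM (median 257) in NODxPWK and 202 to 414 CPM (median 332) in PWKxNOD mice, and 19 of 24 PWKxNOD mice lay above the NODxPWK median. It was higher by 0.28 ± 0.07, or 1.21-fold (edgeR adjusted p = 0.00491). Serpina3k had 8442 to 13625 CPM (median 11135) in NODxPWK and 8355 to 15025 CPM (median 12467) in PWKxNOD mice, a log2 difference of 0.14 ± 0.05 (edgeR adjusted p = 0.0366). Cell markers were called between the crosses too: 8 of 15 pancreas markers were higher in PWKxNOD mice and none lower. The pancreas sum was 0.235 to 222 CPM (median 2.31) in NODxPWK and 0 to 1735 CPM (median 3.05) in PWKxNOD mice. It exceeded 10 CPM in 5 of 24 NODxPWK and 6 of 24 PWKxNOD mice, so a few mice held most of it in either cross. Lower in PWKxNOD mice were 1 of 7 tested Kupffer cell markers, Vsig4 (-0.44 ± 0.10), and 2 of 7 endothelial markers, Lyve1 (-0.25 ± 0.07) and Pecam1 (-0.13 ± 0.04). Of 5 erythroid markers 1 was lower, Alas2 (-4.03 ± 0.09). Of 12 hepatocyte markers 1 was higher, Pck1 (0.68 ± 0.18), and 1 lower, Alb (-0.29 ± 0.05). The 2 tested cholangiocyte markers went opposite ways, Spp1 higher (0.27 ± 0.08) and Sox9 lower (-0.77 ± 0.14). The part of these markers in the differences of Serpina6 and Serpina3k was not tested beyond the fit without the mice with pancreas transcripts. In that fit Serpina6 kept its call. The clock score was -2.82 to 2.55 in NODxPWK and 0.87 to 4.18 in PWKxNOD mice. With that score as a covariate the differences were 0.09 ± 0.12 for Serpina6 and 0.08 ± 0.08 for Serpina3k (adjusted p = 1 for each). Cross and clock score largely separate the same mice, and their parts in these differences cannot be told apart here. Without the mice labelled 25 Serpina6 had 0.30 ± 0.10 (adjusted p = 0.0521) and Serpina3k 0.16 ± 0.06 (adjusted p = 0.12). The Serpina3k call was also lost without lane sets 1, 2, 4 or 5 (adjusted p = 0.0825 to 0.197), without the shallowest barcode (adjusted p = 0.0597), without the mice with pancreas transcripts (adjusted p = 0.135) and with no filter on low counts (adjusted p = 0.0972). Serpina3m leaned to NODxPWK mice by -0.30 ± 0.10 without passing (edgeR adjusted p = 0.0548, DESeq2 adjusted p = 0.0378). None of the 9 genes was called for a difference of the age effect (0.0501% of genes called, 0.0334% higher and 0.0167% lower) or of the diet effect (0.125%, 0.0584% higher and 0.0668% lower) between crosses, by edgeR or DESeq2. Unadjusted p-values were under 0.05 for Serpina1a in the first and Serpina3k in the second.

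Mice of a group differed most in Serpina1e and Serpina3m. Averaged over the 8 groups, the coefficient of variation of CPM was 24.1% for Serpina1e, 23.9% for Serpina3m and 16.4% for Serpina6. It was 11.5% for Serpina3n and 7.75 to 9.50% for the other 5 genes. After removing group means, log2 levels of Serpina1b and Serpina1d correlated over the 48 mice at r = 0.94, Serpina1a and Serpina1b at 0.83 and Serpina1c and Serpina1e at 0.80. These copies share windows as well as libraries, and the part of shared reads in such a correlation was not tested. Serpina1c and Serpina3k, which share no window, had r = 0.71. Serpina3m correlated with Serpina3n at 0.65 and with Serpina6 at 0.57, and ran against Serpina1e at -0.45.

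The genes most like each pattern were named by the highest Pearson r of log2 levels over the 48 mice, as a description. For the Serpina1 sum they were Mug1 (r = 0.78), which encodes murinoglobulin, another plasma protease inhibitor, Mup13 (0.75), a major urinary protein gene, and Cav1 (0.75), which encodes caveolin. For Serpina3k they were C8b (0.86), a complement gene, Aadat (0.83), which encodes an aminoadipate aminotransferase, and Cyp7b1 (0.83), an oxysterol hydroxylase gene with higher expression in male liver. For Serpina3m they were Dpyd (0.86), which encodes the pyrimidine-degrading dihydropyrimidine dehydrogenase, Tmem38b (0.82), an intracellular channel gene, and Zbtb16 (0.76), a glucocorticoid-responsive transcription factor gene. For Serpina3n they were Nnmt (0.68), which encodes nicotinamide N-methyltransferase, Gfra1 (0.65), a receptor gene for glial cell line-derived factors, and Lbp (0.63), which encodes the lipopolysaccharide-binding acute phase protein. For Serpina6 they were Mbl2 (0.77), which encodes a mannose-binding lectin, Fmo1 (0.77), a flavin monooxygenase gene, and Lpin2 (0.73), which encodes a lipin.

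Genes around this family were read from lists and are given by counts. Over all genes tested, 6.42% were higher and 5.58% lower with age, and 5.36% higher and 5.33% lower in PWKxNOD mice. On the high diet in older mice 1.9% were higher and 1.81% lower. These 445 diet calls fell to 5 without the mice labelled 25 and to 16 without the mice with pancreas transcripts. List genes were not followed one by one through such fits. Of 17 other clade A serpins 10 were tested, and with age 1 was higher, the thyroxine-binding globulin gene Serpina7 (0.54 ± 0.12, edgeR adjusted p = 0.000907), and 2 were lower, Serpina3g (-0.62 ± 0.15) and Serpina3h (-0.29 ± 0.10). On the high diet in older mice 2 of the 10 were higher, Serpina12 (0.99 ± 0.21, edgeR adjusted p = 0.00454), which encodes the adipokine vaspin, and Serpina5 (0.98 ± 0.29, edgeR adjusted p = 0.0377), the protein C inhibitor gene. Of 11 tested serpins of other clades, 3 were higher and 2 lower with age, among them Serping1 (0.17 ± 0.03), the C1 inhibitor gene, and Serpinc1 (-0.12 ± 0.03), the antithrombin gene. Of 12 proteases that such serpins inhibit, 2 passed the filter on low counts and neither was called for age. Neutrophil elastase was among the 10 that did not pass.

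Of 24 acute phase genes 12 were higher and 0 lower with age (median 0.29, against -0.0035 over all genes tested), among them Orm2 (3.09 ± 0.19), Saa1 (3.95 ± 0.30) and Hp (0.81 ± 0.06), while Serpina3n, itself an acute phase gene, differed by -0.03 ± 0.05. Of 11 tested genes of interleukin-6 signalling, 1 was lower with age, Stat3 (-0.25 ± 0.07), and none was higher. Of 22 genes that fold and export secretory proteins, 9 were lower and 1 higher with age, among them Hspa5 (-0.61 ± 0.07) and Hyou1 (-0.72 ± 0.11), both chaperone genes of the endoplasmic reticulum. Of 13 hepatocyte transcription factor genes none was called for age. Between the crosses 3 of them were higher in PWKxNOD mice, Nr1h4 (0.30 ± 0.05), Ppara (0.30 ± 0.06) and Onecut2 (0.31 ± 0.10), and 1 was lower, Foxa2 (-0.37 ± 0.11, edgeR adjusted p = 0.0278). Of 14 genes of glucocorticoid reception and response, the steroids that Serpina6 carries, 4 were higher and 2 lower in PWKxNOD mice, among them Per1 (1.07 ± 0.22), which is also a clock gene, and Hsd11b1 (-0.20 ± 0.04). Of 12 genes with higher expression in male liver, 5 were higher and 1 lower on the high diet in older mice, among them Hsd3b5 (0.45 ± 0.09), Mup20 (0.62 ± 0.14) and Cyp7b1 (0.55 ± 0.13).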

How the data were processed

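Liver messenger RNA of 48 mice was sequenced as unstranded, poly-A selected, single-end 68 bp libraries, per the labels' protocols. The deposited values are the authors' expected counts per gene, split between the NOD and PWK alleles and not scaled; the tables hold 1 column per mouse for 2 runs each. Per the submitters' processing notes, CASAVA 1.7.0, Bowtie 1.1.2 and GRCm38 were used. For the allele method, the version, annotation and filters are not stated in these sources.

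Of the 38924 genes, 37607 were matched to GENCODE M21. NOD and PWK counts were summed, rounded, filtered with filterByExpr, TMM-scaled and tested with edgeR 4.0.16 (quasi-likelihood, 8 group means, R 4.3.3). Allele ratios were tested with the mouse as a fixed effect in autosomal genes with a mean of at least 20 counts. Two-sided p-values were Benjamini-Hochberg adjusted over every gene of a fit and called under 0.05. The age fit and the allele fit were tested on simulated data. For log2 CPM a pseudocount of 0.5 was added. Alternatives included DESeq2 1.42.0 and limma 3.58.1. The named genes were all 9 members, up to 4 called genes per list by p-value, and 3 genes of like pattern; further list genes are given as counts. Members and lists were chosen with earlier results of these data known. Replicate numbers mark a shared lane set per the labels: deviations from group means correlated at -0.005 within and 0.001 between lane sets, and 32 of 168 pairs exceeded 0.1.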

Additional observations from a re-analysis of the deposited data

Results flagged for a closer look

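Each gene's level and PWK share was checked within the 8 groups of 6 mice for a single mouse far from the other 5. Of 144 such sets 14 held one, where chance gives about 1 in 20. For Serpina1b, 1 PWKxNOD mouse on the normal diet in the younger group had 8468 CPM (others 7179 to 7629), and 1 older NODxPWK mouse on the high diet had a PWK share of 48.7% (others 50.5 to 51.4%). For Serpina1c, 1 older PWKxNOD mouse had a PWK share of 0.211% on the normal diet (others 0.039 to 0.090%) and 1 had 0.12% on the high diet (others 0.045 to 0.070%). For Serpina1d, 1 younger PWKxNOD mouse on the high diet had 72.4% (others 77.5 to 80.3%).

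For Serpina1e, on the high diet, 1 younger NODxPWK mouse had a PWK share of 98.1% (others 98.9 to 99.3%), 1 older NODxPWK mouse 97.7% (others 98.96 to 99.2%) and 1 older PWKxNOD mouse 98.5% (others 98.9 to 99.2%). For Serpina3k, on the high diet, 1 older NODxPWK mouse had 8442 CPM (others 11003 to 12506) and 1 older PWKxNOD mouse 10718 CPM (others 13748 to 15025). The Serpina3k PWK share was 38.4% in 1 older NODxPWK mouse on the high diet (others 40.4 to 41.4%). For Serpina3m, 1 older PWKxNOD mouse on the high diet had a PWK share of 94.4% (others 72.6 to 80.1%). For Serpina3n, 1 older NODxPWK mouse on the normal diet had 37.03% (others 41.4 to 43.02%), and for Serpina6, 1 younger PWKxNOD mouse on the normal diet had 49.6% (others 53.8 to 55.7%).

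By a test of the difference itself, the diet effect differed between older and younger mice for Serpina1e, by 1.01 on the log2 scale, and for Serpina3k, by 0.38. Both calls were lost in most fits that left out a lane set and without the mice labelled 25 (adjusted p = 0.457 for Serpina1e and 0.3 for Serpina3k).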

How the results depend on the processing

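The 9 allele calls and the 2 age calls on allele ratio were kept under each alternative run for allele ratios. Those runs did not include the clock score, or leave out the mice with pancreas transcripts or the shallowest barcode. They are therefore not the same set as for summed counts, and none changed how reads were divided between copies. Without the 7 mice labelled 25, the number of the 9 genes called was 0 for age, cross, diet in older mice, diet by age, parent of origin and diet on allele ratio. With no filter on low counts it was 1 for cross and 0 for diet by age. Without the 11 mice with pancreas transcripts it was 1 for cross, 0 for diet in older mice and 0 for diet by age, and with the clock score as a covariate 0 for each of these 3. Without the shallowest barcode it was 1 for diet by age, and with limma 0 for parent of origin. Leaving out each lane set in turn gave 1 to 2 for cross, 1 to 2 for diet in older mice, 0 to 1 for diet by age, 0 to 1 for parent of origin and 0 to 1 for diet on allele ratio. With the lane set as a replicate block the counts were 1 for age, 2 for cross, 2 for diet in older mice, 2 for diet by age and 0 for diet, as without it, and with limma and the block 0 for parent of origin. Serpina3m turned sign without the mice labelled 25, to 0.012 for diet, 0.021 for diet in older mice and 0.017 for diet by age.

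Over all genes, calls for age were 1438, against 740 with the clock score, 777 without label 25 and 831 without pancreas transcripts. For cross they were 1281 against 62 with the clock score and 847 without label 25, and for diet 41 against 125 with DESeq2 and 0 with the clock score, without label 25 and without pancreas transcripts. For diet in older mice they were 445 against 53, 5 and 16, and for diet by age 74 against 11, 0 and 1, in each case with the clock score, without label 25 and without pancreas transcripts, and 164 with DESeq2. The cause was not tested. Copies that share windows limit values of single Serpina1 genes and of Serpina3m, and depth limits the PWK allele of Serpina1c, at a median of 4.95 CPM.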
